A study of Mus musculus with 24 samples.

Results

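The 8 genes of the E2F transcription factor family, E2f1 to E2f8, and the pocket protein genes Rbl1 (p107) and Rbl2 (p130) were followed through myoblast differentiation. These 10 genes were chosen by name from the 28109 genes of the count table, and all 10 passed the filter on low counts in every fit. RNA-seq was performed on C2C12 cells, an established mouse myoblast line of C3H origin, and on primary myoblasts (PMs) isolated from C57/B6 mice of 3 to 4 weeks of age. Every group had undergone siRNA transfection, either with a control siRNA, siLuc in the labels (siControl) or with a mix that targets Tead1 together with Tead4 (siTead1/4). Cells were taken undifferentiated at day 0, which was 24 hours after transfection, and at days 3 and 6 in medium with 2% horse serum. The basal medium was DMEM for C2C12 and IMDM for PMs, which were plated on matrigel. Each of the 12 groups of cell type, siRNA and day had 2 replicates labelled as biological, which gives 24 libraries. C2C12 is 1 line, and nothing used here says whether the PM replicates came from separate mice, so that the spread between replicates may in part be technical.

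E2F factors bind DNA at cell cycle genes, most of them as dimers with a DP protein encoded by Tfdp1 or Tfdp2. E2f1, E2f2 and E2f3 are known as activators of the genes of DNA synthesis, E2f4 and E2f5 as repressors held by p107 and p130, E2f6 as a repressor that needs no pocket protein, and E2f7 and E2f8 as atypical repressors that bind without DP. In resting and differentiating cells, p130 with E2f4 and the MuvB subunits forms the DREAM complex, which holds cell cycle genes silent, while cyclin-dependent kinases release E2F by phosphorylating the pocket proteins. Myoblasts leave the cell cycle for good when they fuse into myotubes.

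The coordinates of the genes in the files are those of mm9 (NCBIM37), and all 10 starts and ends were identical in the GENCODE vM1 annotation of that build. E2f1 (ENSMUSG00000027490) lies at chr2:154385143-154395628 on the minus strand, and Rbl1 (ENSMUSG00000027641) at chr2:156971629-157030270 on the same strand. E2f2 (ENSMUSG00000018983) lies at chr4:135728309-135751972, E2f5 (ENSMUSG00000027552) at chr3:14578671-14606308, E2f6 (ENSMUSG00000057469) at chr12:16817771-16833549 and E2f7 (ENSMUSG00000020185) at chr10:110182495-110224440, all on the plus strand. E2f4 (ENSMUSG00000014859) at chr8:107821563-107829269 and Rbl2 (ENSMUSG00000031666) at chr8:93593956-93647743 are on the plus strand. E2f3 (ENSMUSG00000016477) at chr13:29998444-30077537 and E2f8 (ENSMUSG00000046179) at chr7:56121799-56136966 are on the minus strand. The kit did not keep the strand, and exons of 2 genes are shared with a gene on the other strand, 693 bases of Rbl2 with Aktip and 274 bases of E2f8 with Gm2788. Reads on those bases cannot be told apart between the partners, so the levels of Rbl2 and E2f8 carry this uncertainty.

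Promoter windows of 8 of the 10 genes were found in a RefSeq table of build GRCm38.p6 (250 bases before to 50 after a start), and E2f4 and E2f5 have no entry. The only entry of E2f1 starts inside the gene. The windows were searched on both strands for the E2F words TTTCCCGC, TTTCGCGC, TTTGCCGC and TTTGGCGC, for the cell cycle homology region (CHR) TTTGAA, for the Tead word CATTCC (MCAT) and for CCAAT. E2f2 and E2f3 have 2 windows each, so a count of genes is not quite like a share of windows. Of the 10 windows of these genes, 4 held an E2F word, 4 the CHR, 5 CCAAT and 1 MCAT. An E2F word stood in a window of 4 genes (Rbl1, E2f2, E2f3 and E2f7), whereas 2.26% of all 32851 windows of the table hold one. The CHR stood in a window of 4 genes (E2f2, E2f3, E2f8 and Rbl2), against 17.9% of all windows. That of E2f2 stood only in the window of its start farther downstream. CCAAT was found for 4 genes (E2f2, E2f3, E2f7 and E2f8), against 37.4% of all windows. MCAT was found for Rbl1 alone, against 14.7% of all windows, and the window of E2f6 held none of these words. The match in each of the following stretches of 30 bases is in capitals, read 5′ to 3′ on the strand of the gene, with the position of its first base counted from the start. They are shown for the 4 genes with an E2F word, for E2f8 with a CHR close to its start, and for the Tead word of Rbl1.
Rbl1, E2F word at -18, chr2:157204534-157204563: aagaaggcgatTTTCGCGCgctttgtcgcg
E2f3, E2F word at -11, chr13:29986056-29986085: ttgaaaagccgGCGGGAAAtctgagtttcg
E2f7, E2F word at -198, chr10:110745230-110745259: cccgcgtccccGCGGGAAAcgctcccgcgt
E2f2, E2F word at 40, chr4:136172294-136172323: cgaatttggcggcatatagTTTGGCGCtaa
E2f8, CHR at -20, chr7:48881599-48881628: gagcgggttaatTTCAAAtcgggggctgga
Rbl1, MCAT at -121, chr2:157204638-157204667: atcttcttatccCATTCCgggagacgggct
In E2f3, E2f7 and E2f8 the printed strand holds the complement of the word. These matches describe letters and not binding.

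The libraries held 25453830 to 52784510 counts on genes. The members differed in depth, and E2f7 had only 84 and 45 counts in the PM siControl libraries of day 6. The correlation of the replicates of a group (Pearson's r of log2 CPM, counts scaled to library size, across genes, which are not independent replicates) was lowest, at 0.981 to 0.986, in the 3 siTead1/4 groups of C2C12. Tead4 had a lower mean in siTead1/4 than in siControl cells in each of the 6 pairs of groups, with log2 fold changes of -1.28 to -2.58, and Tead1 likewise with -0.52 to -2.46. The Tead4 difference passed the adjusted p in 5 of the 6 pairs and not in C2C12 at day 6 (-1.28, adjusted p = 0.318 by edgeR). Of the Tead1 differences, only those in PMs at days 0 and 3 passed the adjusted p (adjusted p = 0.0211 and 0.0107 by edgeR), so that neither target passed in C2C12 at day 6. In C2C12 siTead1/4 cells at day 0 the libraries kept 28.9 and 4.50 CPM of Tead1. The 10 muscle markers listed summed to 1102 to 1249 CPM in C2C12 siControl cells at day 0 and to 12745 to 15887 CPM at day 3, and in PMs to 9192 to 9505 CPM and 30013 to 31392 CPM. Endothelial markers summed to at most 16.7 CPM and macrophage markers to at most 9.33 CPM in any library. The 7 fibroblast markers in C2C12 siControl cells summed to 875 to 1385 CPM at day 0 and 2739 to 3363 CPM at day 3. At day 6 they summed to 2552 to 2675 CPM, and Thy1, Lum and Tcf21 were under 1 CPM there at each day. In PM siControl cells the sums were 505 to 541 CPM at day 0 and 419 to 634 CPM at day 3, which overlapped. At day 6 they were 1105 to 1137 CPM in PM siControl cells, while Tcf21 was under 1 CPM in every group. Dcn was called higher at day 3 in C2C12 controls (7.17, adjusted p = 0.000213 by edgeR) and at day 6 in PM controls (4.91, adjusted p = 6.04e-06). It was called lower with silencing in PMs at day 6 (-2.46, adjusted p = 0.0184 by edgeR). At day 3 in PM controls the called fibroblast markers with the largest absolute changes were Pdgfrb and Dcn. Both were higher, at 1.33 and 1.14 (adjusted p = 2.83e-06 and 0.0438 by edgeR), although the sums overlapped. The 6 Schwann cell markers summed to 6.70 to 7.13 CPM at day 0 and 312 to 399 CPM at day 3 in C2C12 siControl cells and to 126 to 134 CPM and 360 to 373 CPM in PMs, with Erbb3 called higher (5.83 and 1.46, adjusted p = 1e-05 and 4.45e-06 by edgeR) and Foxd3 under 1 CPM in every group. The part of other cell types in the results was not tested. In these bulk samples, fewer cells of a type and less RNA per cell cannot be told apart.

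Levels were compared between genes as RPKM, the reads scaled to gene length and to TMM library size. E2f4, the main E2F partner of p130, had the highest level of the 10 in undifferentiated cells, with 40.0 ± 1.22 RPKM in C2C12 and 63.0 ± 1.76 RPKM in PMs (SD, n = 2 each, siControl). E2f8 followed with 24.0 ± 0.642 and 31.1 ± 2.57 RPKM. With the union of exons as its length E2f8 was at 17.1 ± 0.458 RPKM in C2C12, below E2f6 with 19.8 ± 0.812 RPKM and E2f1 with 19.4 ± 0.817 RPKM, and at 22.2 ± 1.83 RPKM, still second, in PMs. The lowest levels at day 0 were those of E2f2 in C2C12, with 7.55 ± 0.265 RPKM, and of E2f7 in PMs, with 3.57 ± 0.453 RPKM. In C2C12 at day 0 the replicates of E2f6 and E2f1 overlapped, as did those of E2f3 and E2f5, and the other neighbours in the order did not. By day 3 in PMs E2f6 stood first, with 48.9 ± 2.35 RPKM, above E2f4 with 45.0 ± 0.804 RPKM, and the replicates of these neighbours did not overlap. E2f7 was last of the 10 at days 3 and 6 in both cell types, with 0.869 ± 0.126 RPKM in C2C12 and 0.539 ± 0.126 RPKM in PMs at day 3. The plot of CPM by day shows each library.

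**Figure D1:**
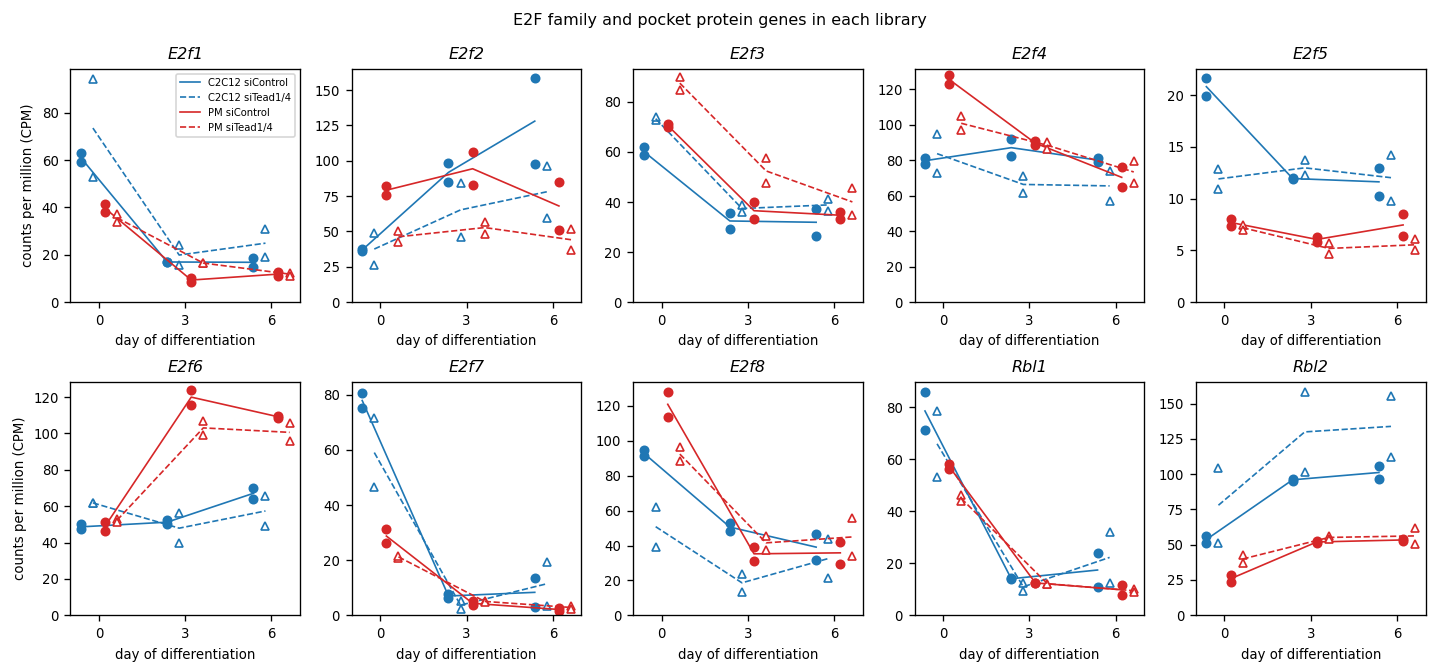
CPM (counts scaled to library size, linear axis from 0) of the 10 genes at days 0, 3 and 6 in C2C12 (blue) and PMs (red). Each point is 1 library, filled for siControl and open for siTead1/4, lines join the means of 2 replicates, and points are set apart sideways for sight. The group means of E2f1, E2f7, E2f8 and Rbl1 are lower at days 3 and 6 than at day 0 in both cell types, those of Rbl2 are higher, and those of E2f6 are higher in PMs.

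The first question was which of these genes changed when control myoblasts differentiated. In C2C12 cells E2f1, E2f7 and Rbl1 fell and E2f2 rose by day 3, which makes 3 members lower and 1 higher of 10. Among all 15303 genes tested in C2C12, 12.7% were lower and 16% were higher at that day. A gene was called at a Benjamini-Hochberg adjusted p under 0.05 with an absolute log2 fold change over 1, by edgeR's quasi-likelihood test. By day 6, 4 members were lower, E2f8 being added, and E2f2 was again higher, against 14% lower and 17.1% higher of all genes.

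Among the activators, E2f1 was at 59.2 and 62.9 CPM in the day 0 libraries of C2C12, at 16.9 and 17.0 CPM at day 3 and at 14.9 and 18.7 CPM at day 6. The day 0 libraries stood well apart from all later ones. The log2 fold changes of E2f1 were -1.89 at day 3 (standard error, SE, 0.34, adjusted p = 0.00167 by edgeR) and -1.90 at day 6 (adjusted p = 0.00141). E2f2 moved the other way, from 37.8 and 35.9 CPM to 85.3 and 98.2 CPM at day 3 and to 97.6 and 158 CPM at day 6. Its log2 fold changes were 1.28 (SE 0.38, adjusted p = 0.0235 by edgeR) and 1.76 (adjusted p = 0.0049). The day 0 libraries of E2f2 did not overlap with the later ones, whereas those of days 3 and 6 overlapped, and the call at day 3 was lost without any 1 of the 4 libraries compared, with adjusted p of 0.0579 to 0.111 by edgeR and log2 fold changes of 1.16 to 1.38. E2f3 went from 58.7 and 61.8 CPM to 29.1 and 35.7 CPM at day 3, a log2 fold change of -0.93 that passed the adjusted p but not the fold minimum (adjusted p = 0.00402 by edgeR). Without replicate 2 of day 3 it was -1.10 and called.

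E2f4 was at 78.0 and 81.4 CPM at day 0 of C2C12 and at 92.0 and 82.1 CPM at day 3, and its log2 fold change of 0.09 had a 95% interval from -0.34 to 0.51. E2f5, the other E2F that p130 binds, was at 19.9 and 21.7 CPM and then at 11.9 and 12.0 CPM at day 3, a log2 fold change of -0.84 below the fold minimum (adjusted p = 0.0145 by edgeR). E2f6 was at 47.2 and 50.02 CPM at day 0, at 50.2 and 52.1 CPM at day 3 and at 64.0 and 70.1 CPM at day 6. None of these 3 genes was called in C2C12 controls.

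The atypical E2f7 showed the largest change of the 10. Its libraries held 75.2 and 80.7 CPM at day 0, 6.28 and 7.71 CPM at day 3, and 3.14 and 13.5 CPM at day 6. Its log2 fold changes were -3.52 at day 3 (SE 0.83, adjusted p = 0.00761 by edgeR) and -3.28 at day 6 (SE 0.83, adjusted p = 0.00947). The day 6 libraries lay far apart, and the day 6 call was lost without replicate 1 of day 6, with -2.57 and adjusted p = 0.0619 by edgeR. The day 3 call was lost without replicate 1 of day 3, with -3.37 and adjusted p = 0.0601. E2f8 was less far apart, with 91.3 and 94.8 CPM at day 0, 48.5 and 52.6 CPM at day 3, and then 31.8 and 46.4 CPM. It was not called at day 3, with a log2 fold change of -0.92 (adjusted p = 0.0764 by edgeR), and was called at day 6 with -1.29 (adjusted p = 0.0197). That call was lost without either day 0 library or without replicate 1 of day 6, where it was -1.04 (adjusted p = 0.136 by edgeR).

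Rbl1 had 71.4 and 85.9 CPM at day 0, 13.8 and 14.4 CPM at day 3 and 10.9 and 24.0 CPM at day 6 of C2C12. It fell with log2 fold changes of -2.52 at day 3 (SE 0.46, adjusted p = 0.00204 by edgeR) and -2.22 at day 6 (adjusted p = 0.00347). Rbl2 had 56.4 and 51.0 CPM at day 0, 96.7 and 95.3 CPM at day 3 and 106 and 96.2 CPM at day 6. The libraries of Rbl2 did not overlap between day 0 and later days, yet its log2 fold changes of 0.80 (adjusted p = 0.0724 by edgeR) and 0.88 (adjusted p = 0.0495) stayed below the fold minimum.

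In PMs E2f1, E2f3, E2f7, E2f8 and Rbl1 fell and E2f6 rose at both day 3 and day 6, 5 members lower and 1 higher of 10. Of the 16144 genes tested in PMs, 14.9% were lower and 17.5% higher at day 3, and 15.3% lower and 20.2% higher at day 6. E2f1 was at 37.9 and 41.4 CPM at day 0 and at 8.61 and 10.0 CPM at day 3, a log2 fold change of -2.15 (SE 0.13, adjusted p = 5.8e-07 by edgeR). E2f7 went from 26.2 and 31.3 CPM to 3.62 and 5.06 CPM at day 3 and 2.72 and 1.47 CPM at day 6. Its log2 fold changes were -2.78 and -3.84 (adjusted p = 1.11e-05 and 1.75e-06 by edgeR). E2f8, with 114 and 128 CPM at day 0, was at 31.3 and 39.1 CPM at day 3, a log2 fold change of -1.84 (adjusted p = 7.75e-05 by edgeR). The 3 genes had no overlap between day 0 and day 3, but neither had genes that were not called, such as E2f2 and E2f5.

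Rbl1 fell in PMs from 58.3 and 56.2 CPM to 12.4 and 12.5 CPM at day 3 and to 11.6 and 7.99 CPM at day 6. The log2 fold changes were -2.26 and -2.61 (SE 0.16 each, adjusted p = 1.09e-06 and 4.15e-07 by edgeR). E2f3 was at 69.9 and 71.3 CPM at day 0 and at 33.2 and 39.9 CPM at day 3, a log2 fold change of -1.01 (adjusted p = 0.000193 by edgeR) that lies at the fold minimum. Without replicate 1 of day 3 it was -0.88 and without replicate 2 of day 0 it was -0.99, which are not called. E2f6 was the gene that rose, from 51.5 and 46.4 CPM to 124 and 116 CPM at day 3 and 110 and 109 CPM at day 6. Its log2 fold changes were 1.24 (SE 0.10, adjusted p = 2.46e-06 by edgeR) and 1.09 (adjusted p = 4.75e-06).

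Rbl2 in PMs had 28.4 and 23.3 CPM at day 0, 51.5 and 52.3 CPM at day 3 and 54.2 and 52.5 CPM at day 6. The log2 fold changes of 0.95 and 0.98 passed the adjusted p (edgeR 0.000118 and 8.88e-05) and missed the fold minimum. Without replicate 1 of day 0 they were 1.11 and 1.13 and called. E2f4 likewise passed the adjusted p alone, with 128 and 123 CPM at day 0, 90.7 and 88.4 CPM at day 3 and 64.6 and 76.0 CPM at day 6. Its log2 fold changes were -0.54 and -0.90 (adjusted p = 0.00196 and 5.96e-05 by edgeR), and the second was -1.03 and called without replicate 2 of day 6. E2f2, which rose in C2C12, was at 82.4 and 75.9 CPM at day 0 and at 82.7 and 106 CPM at day 3 in PMs, and the 95% interval of its log2 fold change ran from -0.33 to 0.72. E2f5 stayed between 5.81 and 8.51 CPM in the 6 siControl libraries of PMs.

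**Figure D2:**
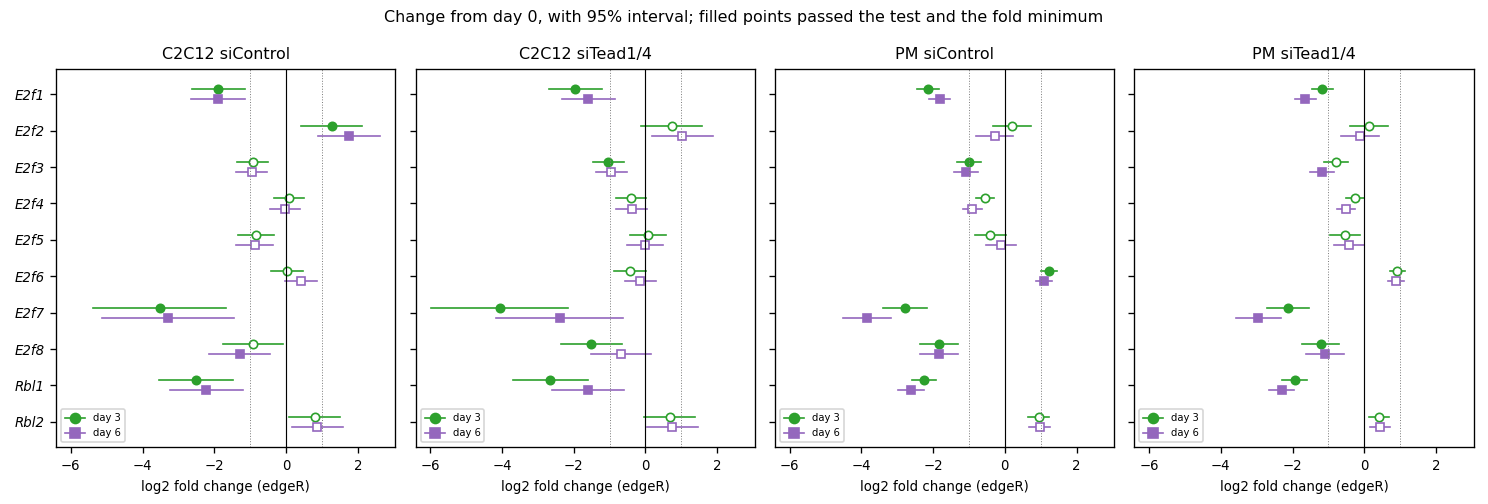
Log2 fold change (edgeR) of each gene from day 0 to day 3 (circles) and day 6 (squares), in siControl and siTead1/4 cells of each cell type, with 95% intervals. Filled points passed the adjusted p and the fold minimum, and dotted lines mark that minimum. E2f1, E2f7 and Rbl1 are filled in all 4 panels at both days.

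Between day 3 and day 6 of control cells no member was called by edgeR in either cell type, where 0% of all genes in C2C12 and 2.8% in PMs were called. At an unadjusted p under 0.05 there were 0 members in C2C12 and 4 in PMs. DESeq2 called 0 in C2C12 and 1 in PMs. That gene was E2f7, with an edgeR log2 fold change of -1.06 (SE 0.29, adjusted p = 0.0604). It was also called without replicate 1 of day 6, at -1.57 (adjusted p = 0.037 by edgeR).

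The makeup of the E2f transcripts was then described per length, as each class's share of the summed RPKM of E2f1 to E2f8. The shares and the ratio below are given with no test. The atypical E2f7 and E2f8 made up 23.2% ± 0.00510 of the sum in C2C12 at day 0 and 12.0% ± 0.669 at day 3 (SD, n = 2 each, siControl). In PMs their share was 21.0% ± 1.81 and then 7.01% ± 0.960. E2f4, E2f5 and E2f6 went from 49.5% ± 0.222 to 61.4% ± 2.96 in C2C12 and from 52.8% ± 1.83 to 71.2% ± 3.85 in PMs. The activators held 27.3% ± 0.217 and 26.6% ± 2.29 in C2C12, where the values of E2f1 and E2f2 moved in opposite directions, and 26.3% ± 0.0266 and 21.8% ± 2.89 in PMs. The replicates of the atypical share and of the E2f4 to E2f6 share did not overlap between day 0 and day 3 in either cell type.

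The ratio of Rbl1 to Rbl2 RPKM crossed 1 during differentiation in both cell types. It was 1.53 ± 0.308 in C2C12 at day 0, 0.152 ± 0.00600 at day 3 and 0.183 ± 0.108 at day 6 (SD, n = 2 each, siControl). In PMs it was 2.32 ± 0.265, 0.249 ± 0.000418 and 0.190 ± 0.0457. In siTead1/4 cells at day 0 it was 0.931 ± 0.208 in C2C12 and 1.18 ± 0.0832 in PMs. The siTead1/4 libraries of each cell type lay below the siControl libraries of the same day 0, as the plot of classes shows.

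**Figure D3:**
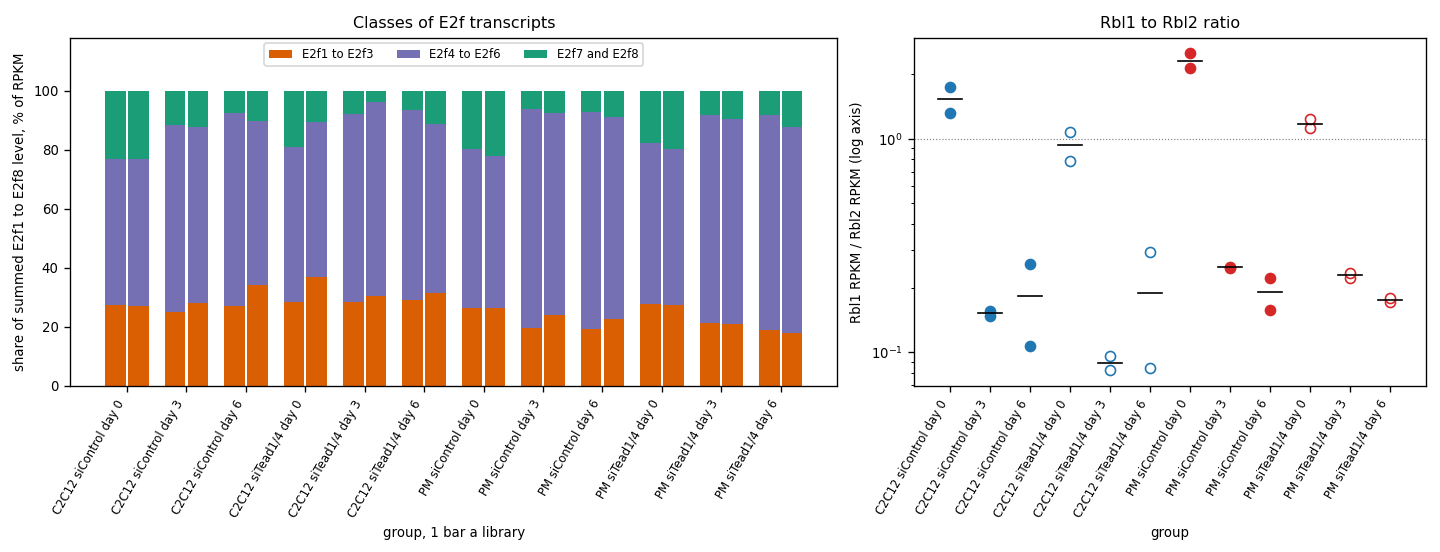
Left, share of the summed RPKM of E2f1 to E2f8 held by the activators E2f1 to E2f3, by E2f4 to E2f6 and by the atypical E2f7 and E2f8, 1 bar a library, as a percentage. Right, ratio of Rbl1 to Rbl2 RPKM (log axis) in each library, filled for siControl and open for siTead1/4, C2C12 blue and PMs red, with the mean of 2 replicates as a line. The ratio is above 1 in both siControl groups at day 0 and below 1 in all groups at days 3 and 6.

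Genes that work with these factors were read as lists. Of 9 dimer and MuvB partners, 5 fell and 0 rose by day 3 in both C2C12 and PMs, with median log2 fold changes of -1.26 and -1.03, beside medians over all genes tested of -0.01 in C2C12 and 0.01 in PMs. Mybl2 (B-Myb), which joins MuvB when cells divide, had the largest change of the list, with -4.85 (adjusted p = 0.00154 by edgeR) in C2C12 and -4.36 (adjusted p = 3.59e-07) in PMs. Foxm1, a driver of mitotic genes, had -3.29 and -3.04 (adjusted p = 0.00512 and 6.3e-06 by edgeR). Of 10 partners of E2f6 in its repressor complex, 1 fell in C2C12 (Cbx3, -1.29) and 2 fell in PMs (Cbx3, -1.51, and Rybp, -1.16), and none rose at day 3, where 12.7% and 14.9% of all genes were lower. The medians of this list were -0.20 and -0.48.

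All 36 listed G1/S targets of E2F and all 28 listed G2/M genes fell by day 3 and were still called lower at day 6 in the controls of both cell types. Of all genes, 12.7% in C2C12 and 14.9% in PMs were lower at day 3, and 14% and 15.3% at day 6. The 28 G2/M genes summed to 279 CPM in replicate 1 and 1102 CPM in replicate 2 of C2C12 siControl cells at day 6, and to 301 and 1679 CPM in siTead1/4 cells, and E2f7 and Rbl1 were likewise higher in replicate 2 of both groups. The median log2 fold changes at day 3 were -3.07 and -3.38 in C2C12 and -3.04 and -3.41 in PMs. Cdc6, which loads the replicative helicase, had -4.75 (adjusted p = 0.00108 by edgeR) and Mcm10 -4.63 (adjusted p = 0.00114) in C2C12. In PMs the largest were Mcm10 with -4.14 and Rrm2, a subunit of ribonucleotide reductase, with -4.002 (adjusted p = 1.3e-06 and 7.61e-08 by edgeR). The largest among the G2/M genes were Birc5 with -3.70 and Aurka with -3.55 in C2C12, and Ccnb1 with -3.77 and Aurkb with -3.70 in PMs. An E2F word stood in a window of 14 of the 28 G1/S genes that have an entry and of 1 of 25 G2/M genes, while the CHR stood in 4 and 19 of them, in the same RefSeq windows as above.

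The 9 inputs to the pocket proteins split, with 3 higher and 3 lower at day 3 in each cell type and medians of 0.35 in C2C12 and 0.01 in PMs. Of all genes, 16% were higher and 12.7% lower in C2C12 and 17.5% and 14.9% in PMs. Ccnd1 (cyclin D1) was lower, at -4.90 in C2C12 (adjusted p = 4.07e-06 by edgeR) and -2.57 in PMs (adjusted p = 2.33e-05). The Cdk inhibitor gene with the largest rise was Cdkn1a (p21) in C2C12, at 3.43 (adjusted p = 3.95e-05 by edgeR), and Cdkn1c (p57) in PMs, at 3.36 (adjusted p = 1.22e-05). These lists were chosen with earlier results of the same libraries known.

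**Figure D4:**
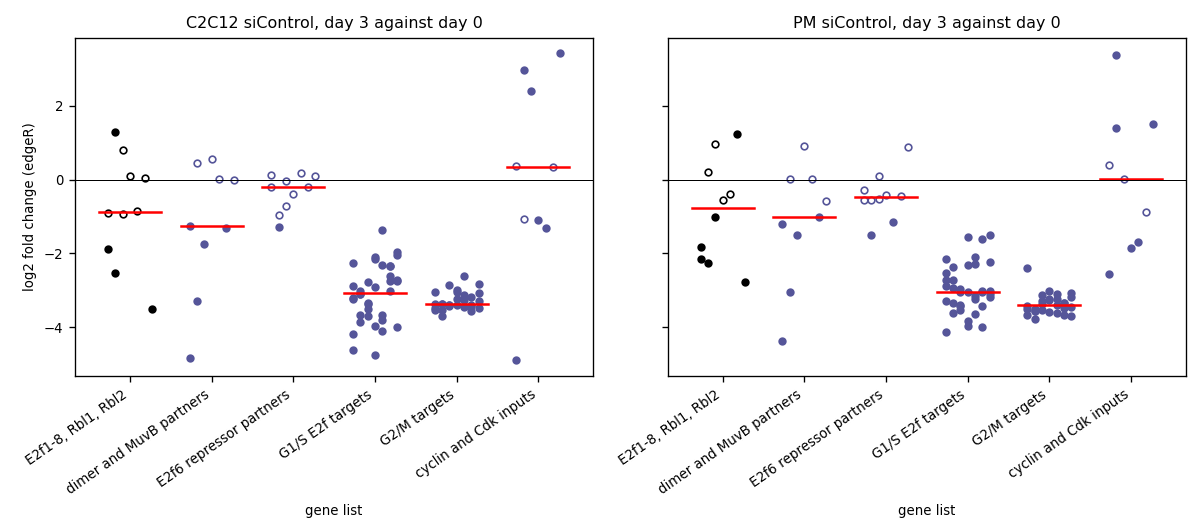
Log2 fold change (edgeR, day 3 against day 0, siControl) of every gene of the 10 members and of 5 lists in C2C12 (left) and PMs (right). Each point is 1 gene, filled where it passed the adjusted p and the fold minimum, and a red line marks the median of a list. All points of the G1/S and G2/M lists are filled and below 0, whereas the 10 members spread from -3.52 to 1.28 in C2C12.

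The next question was whether silencing of Tead1 and Tead4 altered these genes at a given day. These comparisons share their siControl libraries with those of differentiation. No member was called by edgeR at any day in either cell type. The share of all genes called was 0.438% at day 0, 1.27% at day 3 and 0.0457% at day 6 in C2C12, and 2.6%, 3.3% and 0.743% in PMs. At an unadjusted p under 0.05 there were 2, 1 and 0 members in C2C12 and 4, 4 and 2 in PMs, and DESeq2 called 1 member in all, at day 3 in C2C12.

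That member was E2f8. It had 48.5 and 52.6 CPM in siControl and 23.7 and 13.5 CPM in siTead1/4 libraries of C2C12 at day 3, which did not overlap. The log2 fold change was -1.47 (SE 0.38, 95% interval -2.32 to -0.61, adjusted p = 0.104 by edgeR). Beside DESeq2 (-1.48, adjusted p = 0.00815), it was called with no filter on low counts (-1.47) and with all 24 libraries in 1 fit (-1.44, adjusted p = 0.0203 by edgeR). In PMs at that day E2f8 was at 31.3 and 39.1 CPM in siControl and 37.3 and 45.7 CPM in siTead1/4 libraries, which overlapped. The difference of the effect on E2f8 between the cell types was 1.68 on the log2 scale (95% interval 0.67 to 2.69) with an edgeR adjusted p of 0.105, so it was not called. It was called by DESeq2 (1.69, adjusted p = 0.0225) and without C2C12 siTead1/4 day 3 replicate 1 (2.13, adjusted p = 0.0285 by edgeR). At day 0 in C2C12 E2f8 had 91.3 and 94.8 CPM against 62.2 and 39.4 CPM, a log2 fold change of -0.88 (adjusted p = 0.446 by edgeR). In the same C2C12 groups at day 3 the muscle markers summed to 4569 to 6373 CPM in siTead1/4 against 12745 to 15887 CPM in siControl libraries, and their part in the difference was not tested.

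In PMs 2 genes passed the adjusted p without reaching the fold minimum. E2f1 at day 3 was at 8.61 and 10.0 CPM in siControl and at 16.5 CPM in both siTead1/4 libraries, a log2 fold change of 0.81 (95% interval 0.52 to 1.11, adjusted p = 0.00548 by edgeR). It lay between the levels of day 0 and the control levels of day 3. Rbl2 at day 0 was at 28.4 and 23.3 CPM in siControl and 42.9 and 36.8 CPM in siTead1/4 libraries, a log2 fold change of 0.61 (95% interval 0.33 to 0.90, adjusted p = 0.0194 by edgeR). E2f2 was lower in siTead1/4 than in siControl libraries of PMs at days 0 and 3 with no overlap, at 50.1 and 42.3 against 82.4 and 75.9 CPM on day 0. This was not particular to PMs. In C2C12 E2f2 was also lower with no overlap at days 3 and 6, and it overlapped at day 0. Its log2 fold changes in PMs were -0.79, -0.85 and -0.62 at days 0, 3 and 6 (adjusted p = 0.0741, 0.0593 and 0.319 by edgeR). E2f5 in C2C12 at day 0 was at 12.9 and 10.9 CPM against 19.9 and 21.7 CPM, with -0.81 (adjusted p = 0.187 by edgeR). For E2f7 in C2C12 the intervals of the effect spanned over 3 log2 units at each day, so that only large effects could have been seen.

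**Figure D5:**
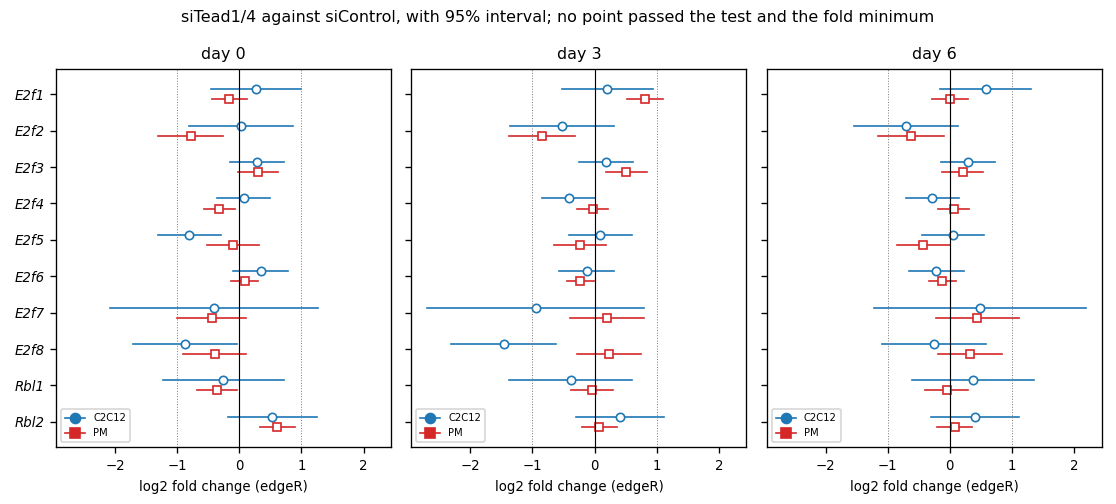
Log2 fold change (edgeR) of siTead1/4 against siControl at days 0, 3 and 6 with 95% intervals, C2C12 as circles and PMs as squares. Open points did not pass both the adjusted p and the fold minimum (dotted lines), and all points are open. E2f8 in C2C12 lies at -1.47 and E2f1 in PMs at 0.81 at day 3.

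Of the partner and target lists, no gene of the dimer and MuvB, E2f6, G1/S and G2/M lists was called for silencing at any day in either cell type. Ccnd1 was called higher in siTead1/4 cells at day 3, with 1.34 in C2C12 and 1.10 in PMs (adjusted p = 0.0405 and 0.0361 by edgeR). The medians of the 36 G1/S genes for silencing were -0.16, -0.44 and 0.50 at days 0, 3 and 6 in C2C12 and -0.48, 0.10 and 0.03 in PMs. Their summed CPM at day 0 of PMs was 3023 and 3406 in siTead1/4 and 4499 and 4589 in siControl libraries. For the G2/M genes it was 2917 and 3010 against 4297 and 4001 CPM. Both sums were also lower without overlap in C2C12 at days 0 and 3. At day 3 of PMs the G2/M sum was higher with silencing and the G1/S sums overlapped, and at day 6 all overlapped. The sums were not tested.

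Whether the effect of silencing differed between days was also tested, in a comparison added after the data were seen. No member was called by edgeR, beside 0% of all genes in C2C12 for both day 3 and day 6 against day 0, and 0.328% and 0.626% in PMs. At an unadjusted p under 0.05 there were 1 and 1 members in C2C12 and 3 and 3 in PMs, and DESeq2 called 0 in each. The largest difference in PMs relative to its error was that of E2f1 between day 3 and day 0, 0.98 (95% interval 0.58 to 1.38, adjusted p = 0.0532 by edgeR).

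The change from day 0 was then measured within silenced cells, whose libraries also enter the comparisons with siControl above. In C2C12 siTead1/4 cells E2f1, E2f3, E2f7, E2f8 and Rbl1 fell by day 3, 5 lower and 0 higher, against 10.8% lower and 13.8% higher of all genes. By day 6, 3 were lower (E2f1, E2f7 and Rbl1) and 0 higher, against 10.7% and 14.4%. E2f7 went from 71.5 and 46.6 CPM to 5.19 and 2.18 CPM at day 3, a log2 fold change of -4.06 (adjusted p = 0.00529 by edgeR). At day 6 its libraries held 3.37 and 19.5 CPM, and those of Rbl1 12.6 and 32.0 CPM, so replicate 2 stood above replicate 1 for both. The number of members called at day 6 was 1 without C2C12 siTead1/4 day 6 replicate 1 and 5 without replicate 2. Rbl1 was at -2.65 at day 3 (adjusted p = 0.00203 by edgeR) and at -1.59 at day 6 (adjusted p = 0.0202), the second not called without day 6 replicate 1 (-1.06) or without day 0 replicate 1 (-1.29). The call of E2f7 at day 6, -2.39 (adjusted p = 0.039 by edgeR), was lost without day 6 replicate 1 (-1.61) and without either day 0 library (-2.06 and -2.64). E2f8 at day 3, -1.51 (adjusted p = 0.0129 by edgeR), was not called without day 0 replicate 1 (-1.15) or day 3 replicate 2 (-1.13), and E2f3, -1.03, was not called by DESeq2 (-0.999) or without day 3 replicate 1 (-0.96).

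Rbl2 had 105 and 51.4 CPM in the day 0 libraries of C2C12 siTead1/4 cells and 159 and 101 CPM at day 3. Its log2 fold change was 0.68 (adjusted p = 0.125 by edgeR), and 1.27 without replicate 1 of day 0 (adjusted p = 0.0137). At day 6, with 155 and 112 CPM, it was 0.75 (adjusted p = 0.0928) and 1.34 without that library (adjusted p = 0.0114). E2f2 was at 26.3 and 48.8 CPM at day 0 and 59.8 and 96.3 CPM at day 6, with 1.02 (adjusted p = 0.0594 by edgeR), and was called by DESeq2 (1.06, adjusted p = 0.0285).

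In PM siTead1/4 cells E2f1, E2f7, E2f8 and Rbl1 fell by day 3, 4 lower and 0 higher, against 12.4% lower and 15.9% higher of all genes. At day 6 E2f3 was added, 5 lower and 0 higher, against 13.7% and 18.2%. E2f1 was at 33.9 and 37.4 CPM at day 0, at 16.5 CPM in both libraries of day 3 and at 12.5 and 11.2 CPM at day 6, with log2 fold changes of -1.17 and -1.65 (adjusted p = 2.97e-05 and 2.64e-06 by edgeR). Rbl1 went from 46.1 and 43.8 CPM to 12.1 and 12.2 CPM, a log2 fold change of -1.94 (adjusted p = 3.19e-06 by edgeR). E2f6 was at 53.1 and 51.4 CPM at day 0 and at 106.7 and 99.3 CPM at day 3. Its log2 fold change of 0.92 passed the adjusted p (edgeR 2.11e-05) and not the fold minimum. Rbl2 likewise passed the adjusted p alone, at 0.41 and 0.44 on days 3 and 6 (adjusted p = 0.0192 and 0.0133 by edgeR). So did E2f5 at day 3, with -0.53 (adjusted p = 0.0366 by edgeR), and E2f4 at day 6, with -0.52 (adjusted p = 0.00274). For E2f2 the log2 fold changes were 0.14 and -0.12 (adjusted p = 0.654 and 0.682 by edgeR). E2f8 at day 6 was at -1.10 (adjusted p = 0.00221 by edgeR), and at -0.78 and not called without day 6 replicate 1.

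PMs were then set against C2C12 cells at the same day. Strain, origin, culture medium, dish coating and the state of differentiation at that day cannot be told apart in this comparison. In siControl cells at day 0 the 10 muscle markers summed to 9192 to 9505 CPM in PMs and 1102 to 1249 CPM in C2C12. Their part in the differences was not tested. In siControl cells at day 0 E2f2 was higher and E2f5 and Rbl2 were lower in PMs, 3 members of 10 called where 26.8% of the 16926 genes tested were. E2f5 was at 7.35 and 8.03 CPM in PMs and 19.9 and 21.7 CPM in C2C12, a log2 fold change of -1.44 (SE 0.21, adjusted p = 2.95e-05 by edgeR). Rbl2 was at 28.4 and 23.3 CPM against 56.4 and 51.0 CPM, with -1.05 (adjusted p = 0.00398 by edgeR) and with -0.94, below the fold minimum, without PM siControl day 0 replicate 2. E2f2 was at 82.4 and 75.9 CPM against 37.8 and 35.9 CPM, with 1.10 (adjusted p = 0.0173 by edgeR), and its call was lost without any 1 of the 4 libraries (adjusted p = 0.0568 to 0.103). No overlap was seen for these 3 genes.

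At day 3, 1 member of 10 was called, against 29.8% of all genes. E2f6 was at 124 and 116 CPM in PMs and 50.2 and 52.1 CPM in C2C12, a log2 fold change of 1.23 (SE 0.16, adjusted p = 1.01e-05 by edgeR). E2f5 came just short of the fold minimum there, at -0.98, and was called without PM siControl day 3 replicate 2 (-1.05) or C2C12 siControl day 3 replicate 1 (-1.01). At day 6, 1 member was called, against 24.9% of all genes. E2f7 was at 2.72 and 1.47 CPM in PMs and 3.14 and 13.5 CPM in C2C12, with -1.97 (adjusted p = 0.0334 by edgeR). This call rested on C2C12 replicate 2, without which the log2 fold change was -0.60 (adjusted p = 0.564 by edgeR), and it was also lost without either PM library (-2.51 and -1.61). Without C2C12 siControl day 6 replicate 1, 3 members were called (E2f2, E2f7 and Rbl1).

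The course of differentiation itself differed between the cell types for 2 members. The change of E2f6 from day 0 to day 3 was larger in PMs than in C2C12 by 1.22 on the log2 scale (SE 0.22, 95% interval 0.75 to 1.69, adjusted p = 0.00112 by edgeR), 1 member of 10 where 11.2% of all genes were called. At day 6 the difference for E2f6 was 0.69 (adjusted p = 0.0426 by edgeR), below the fold minimum. The change of E2f2 from day 0 to day 6 was lower in PMs than in C2C12 by 2.01 on the log2 scale, that is -2.01 (SE 0.49, 95% interval -3.05 to -0.98, adjusted p = 0.00887 by edgeR), again 1 member, where 12.7% of all genes were called. It was -1.69 without PM siControl day 6 replicate 1 and -1.61 without C2C12 siControl day 6 replicate 2, with adjusted p of 0.0619 and 0.0594 by edgeR. For Rbl1 the differences were 0.28 at day 3 and -0.36 at day 6, and their intervals, -0.79 to 1.35 and -1.44 to 0.71, left room for an unequal change in either direction.

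The difference of the siTead1/4 effect between PMs and C2C12 was called for no member by edgeR at day 0, 3 or 6, where 0.00591%, 1.25% and 0.0354% of all genes were. At an unadjusted p under 0.05 there were 1, 1 and 0 members. DESeq2 called 0, 1 and 0, the 1 being E2f8 as given above.

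The likeness of patterns was described over the 24 libraries, which share 4 series of 3 days and 2 replicates. The 3 genes with the highest Pearson's r of log2 CPM to Rbl1 were Kif20a (0.994), Smc2 (0.993) and Ncapg2 (0.993), 2 of which encode condensin subunits. For E2f7 they were Foxm1 (0.987), Ttk (0.986) and Kif20a (0.985). For E2f1 they were 2610039C10Rik (0.976), Srsf9 (0.974) and 1110034A24Rik (0.970), and for E2f3 Wdr82 (0.964), Arl6ip1 (0.950) and Cbx1 (0.940). For E2f6 they were Twf2 (0.964), Pla2g4e (0.957) and Kbtbd13 (0.953), and for Rbl2 Bbs2 (0.950), Tgfbrap1 (0.948) and Tmem167b (0.946). E2f8 was most like 1500010J02Rik (0.916), Smarca4 (0.898) and Cyfip1 (0.876). The least close were those of E2f2, with Recql5 (0.873), Rab3gap2 (0.869) and Ankrd2 (0.843), and of E2f4, with Tead2 (0.867), Snrnp35 (0.857) and Gprin1 (0.835). Among the members the highest r was that of E2f7 with Rbl1 (0.98) and the lowest that of E2f4 with Rbl2 (-0.77). Of the 30 nearest genes of the 10 members, 27 were again among the nearest 3 with a prior count of 0.5, but only 4 over the 12 libraries of C2C12 and 0 over those of PMs.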

How the data were processed

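RNA was sequenced from poly-A selected libraries of 24 samples, made with a kit that keeps no strand. The authors deposited raw read counts per gene, and the submitters' processing notes name CASAVA 1.8.2, TopHat2 2.0.10, Bowtie2 2.1.0, HTSeq 0.6.1 and DESeq2 1.8.1 with build mm9. Normalized columns (48) and 36 columns of 12 libraries that have no sample label were not used, and other columns of the deposited table gave gene lengths and positions.

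The counts were fitted with edgeR 4.0.16 in R 4.3.3 (filterByExpr, TMM, quasi-likelihood test), 1 fit for each cell type with 6 group means, and 1 fit of all 24 libraries for comparisons across cell types. A gene was called at a Benjamini-Hochberg adjusted p under 0.05 with an absolute log2 fold change over 1. CPM and RPKM used TMM library sizes of the 24 libraries and the lengths in the table. DESeq2 1.42.0, other filters and scalings, a replicate block and each library left out were the alternatives. The steps were tested on simulated data. The rule for named genes took all 10 members in every comparison, of which the text gives those called and some that were not, and of each other list the 2 called genes with the largest absolute log2 fold change, given mainly for day 3. Dcn, Pdgfrb and Erbb3 were singled out after their values were seen. For likeness, the 3 genes with the highest r (prior count 2) are named. The likeness of E2f5 is not reported here. The members and lists were chosen with earlier results of these data known.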

Additional observations from a re-analysis of the deposited data

Results flagged for a closer look

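The change of 2 genes during differentiation of control cells differed between PMs and C2C12 cells in a test of the difference itself. This was 1 member of 10 for day 3 and 1 of 10 for day 6, where 11.2% and 12.7% of all genes were called. For E2f6 the change from day 0 to day 3 was larger in PMs by 1.22 on the log2 scale (adjusted p = 0.00112 by edgeR), since it was 1.24 in PMs and 0.03 in C2C12. For E2f2 the difference of the change from day 0 to day 6 was -2.01 (adjusted p = 0.00887 by edgeR), since it was -0.29 in PMs and 1.76 in C2C12. These values come from 2 replicates a group. The E2f2 difference was not called without PM siControl day 6 replicate 1 or without C2C12 siControl day 6 replicate 2, as given above.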

How the results depend on the processing

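Of 336 counts of called members under an alternative, over 28 comparisons, 302 stayed within 1.5 times the count reported, and no called log2 fold change was reversed. In 15 of the 28 comparisons no member was called, and their counts that stayed at 0 are among the 302. The 302 are thus in large part zeros that stayed 0 and say little of how stable the calls were. With no minimum fold change there were 8 members instead of 5 for C2C12 controls at day 6, 1 (Rbl2) and 1 (E2f1) instead of 0 for silencing in PMs at days 0 and 3, 8 instead of 4 and 8 instead of 5 for siTead1/4 PMs at days 3 and 6, 4 and 5 instead of 1 for PMs against C2C12 at days 3 and 6, and 3 instead of 1 for the difference of the day 6 change. With no filter on low counts there was 1 instead of 0 for silencing in C2C12 at day 3, for day 6 against day 3 in PMs and for the difference of the day 3 silencing effect, and 2 instead of 1 for PMs against C2C12 at day 3 and for the difference of the day 3 change. DESeq2 gave 1 instead of 0 for the same 3 comparisons. All 24 libraries in 1 fit gave 1 for silencing in C2C12 at day 3. A fit of only the libraries compared gave 0 instead of 1 for PMs against C2C12 at day 6 and 2 instead of 1 for the difference of the day 3 change. The cause of these differences was not tested.

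With each library left out in turn, the members called ranged from 2 to 4 and from 4 to 6 in C2C12 controls at days 3 and 6, from 4 to 5 and from 1 to 5 in C2C12 siTead1/4 cells, from 5 to 7 and from 6 to 7 in PM controls, and from 4 to 4 and from 4 to 5 in PM siTead1/4 cells. They ranged from 0 to 1 for day 6 against day 3 in PMs, from 1 to 2, 1 to 2 and 0 to 3 for PMs against C2C12 at days 0, 3 and 6, from 0 to 1 for the difference of the silencing effect at day 3, and from 1 to 1 and 0 to 1 for the difference of the day 3 and day 6 change. For the other comparisons they were 0 throughout. Where a group was left with 1 library, that library was assumed to vary like the other groups.

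Replicates share numbers across groups, but no label says that a number marks a shared culture. Deviations from the group means of same-numbered libraries correlated at -0.20 to 0.52 in C2C12 (6 of 15 pairs of groups over 0.1) and at 0.07 to 0.54 in PMs (14 of 15). Between siControl and siTead1/4 at days 0, 3 and 6 they correlated at 0.41, 0.44 and 0.54 in PMs. In C2C12 these values were -0.14, 0.095 and 0.52. The endothelial marker sum was higher in replicate 1 than in replicate 2 of every PM group, as at day 0 of siControl with 11.1 and 3.18 CPM. Whether the PM numbers mark separate preparations was not tested. Since not all pairs were over 0.1 in either cell type, the numbers were not taken to pair the samples, although those of PMs came close. With a replicate block there was 1 member instead of 0 for day 6 against day 3 in PMs (E2f7), 3 instead of 1 for PMs against C2C12 at day 3 and 2 instead of 1 for the difference of the day 3 change. For siTead1/4 against siControl the block gave 0 members at each day in both cell types.

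With lengths from the union of exons in place of those in the table, the share of E2f4 to E2f6 at day 0 was 52.4% in C2C12 and 55.9% in PMs, and that of E2f7 and E2f8 was 18.8% at day 0 and 8.95% at day 3 in C2C12 and 16.3% and 5.17% in PMs. The ratio of Rbl1 to Rbl2 was then 0.170 in C2C12 at day 3, and 2.59 and 0.279 in PMs at days 0 and 3. With 2 replicates a group, members with a large spread in C2C12, such as E2f7, could be called only for large changes.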
